A study of Rattus norvegicus with 6 samples.

Results

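Molecular chaperones bind other proteins and help them fold, assemble or stay soluble. The genes described here are those of the heat shock proteins of the HSP90, HSP70, HSP110, HSP60 and small heat shock families, of the DNAJ co-chaperones, of the TRiC chaperonin and of the heat shock factors. They were taken from the deposited gene table by symbol, as entries starting with Hspa, Hspb, Hspd, Hspe, Hsph, Dnaja, Dnajb, Dnajc or Hsf and a digit, with Hsp90a, or with Cct and a digit from 2 to 8. Hspa5, the HSP70 of the endoplasmic reticulum, was left out. This gave 87 of 27217 entries. The name fits all but a few of them, since Hsf2bp encodes a partner of HSF2 known from meiotic recombination, Hspb11 a protein of ciliary transport, and Cct8l1 is a TRiC-like gene.

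The RNA-seq libraries came from RCS cells (3 libraries), a line grown from a rat chondrosarcoma that keeps many chondrocyte features, and from neonatal rat rib tissue (3 libraries). No treatment, genotype, strain or growth condition was named for either group. RCS cells are 1 tumour line, and a rib piece can hold cartilage, bone, muscle, vessels and blood, so a line in culture was compared with a mixed tissue. The labels do not say which cultures or animals gave the replicates, and the p-values measure only the spread between these libraries.

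HSP70 proteins hold exposed stretches of a client protein, DNAJ proteins bring clients and set off ATP use by HSP70, and HSP110 proteins exchange the nucleotide. HSP90 completes the folding of kinases, receptors and other signalling proteins. TRiC is a ring chamber made of related subunits that folds actin and tubulin, and HSP60 with its HSP10 lid is a folding chamber of mitochondria. Small heat shock proteins bind unfolding proteins without ATP, and several of them are abundant in muscle. Heat shock factors, above all HSF1, switch on many of these genes by binding repeats of a short motif near their start sites.

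The motif, called the heat shock element, was searched for in the promoters of these genes after the differences below had been seen. Its part in those differences was not tested. The element searched was GAANNTTCNNGAA, which reads TTCNNGAANNTTC on the other strand, within 250 bases before the start site in RefSeq promoters of the rat assembly GRCr8. Promoters were found for 67 of the 87 entries (62 by Entrez identifier and 5 by symbol), which made 65 distinct promoters. Of these, 4 held the element (6.15%), against 101 of 21851 protein-coding promoters (0.462%). The 4 were Hsph1, Hspd1, Hspe1 and Hspa8. The promoters of Hspa4l, Hspa4 and Hsp90ab1, which were higher in RCS cells as Hsph1, Hspd1 and Hspe1 were, did not hold it. Hspa8 was matched by symbol only. Of its entries, 1 was called higher and 1 neither, and whether either measures the gene could not be told. The 20 entries without a promoter could not be searched, among them Hsp90aa1, both Hspa1b entries, Hsf1 and Hsf4. Hspd1 and Hspe1 are neighbours that start 290 bases apart on opposite strands, so they share 1 element, in which the motif occurs in overlapping copies made of 4 units. The stretch with the element before Hspe1 (GRCr8, chr9:64084244-64084297, + strand, 65 to 48 bases before its start) and the stretch before Hsph1 (chr12:10427314-10427362, + strand, 36 to 24 bases before its start) are shown because both promoters belong to genes with large differences. The stretches before Hspa8 are not printed. Capitals mark the GAA and TTC units.

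Hspe1: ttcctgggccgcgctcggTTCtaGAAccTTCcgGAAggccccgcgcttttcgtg

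Hsph1: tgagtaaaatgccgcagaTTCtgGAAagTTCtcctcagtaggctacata

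A shorter form with a single pair of units (GAANNTTC or TTCNNGAA), which every longer match also holds, stood in 17 of the 65 member promoters (26.2%) and in 12.7% of protein-coding promoters. It was present before 2 of 8 TRiC entries with a promoter, 3 of 6 small heat shock genes, 3 of 19 DNAJC genes and none of 4 HSF genes. A match of letters is not a measured binding site. Outside the 87 entries, 44 tested genes had the longer element in their promoter, among them Serpinh1, the collagen chaperone HSP47 (0.14, neither). Of the 44, 12 were called higher in RCS cells (27.3%, against 32.9% of all genes tested) and 19 lower (43.2%, against 43.6%), shares near those of all genes.

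Levels are given as log2(normalized count + 1), where a normalized count is scaled by 1 factor for each library and not by gene length. They compare libraries for 1 gene and do not rank genes. Differences are RCS cells minus rib tissue on that scale, tested with limma on 16809 genes with 0.05 as the threshold of the Benjamini-Hochberg adjusted p. A gene past it is said to be called. By estimate, RCS libraries held 6000000 to 8530000 gene reads and rib libraries 5320000 to 7490000. Chondrocyte markers (8 genes, with Sox9, Acan and Col2a1) averaged 12.27 to 12.69 in the RCS libraries, against 12.48 to 13.04 for rib tissue, with 2 called higher, 2 lower and 4 neither. Their summed normalized count was 53664 to 74075 against 99067 to 167173, and the difference was -2.62 for Col2a1, a main cartilage collagen, and 1.70 for Matn1. All 10 proliferation markers were higher in RCS cells, with a summed normalized count of 11725 to 13138 against 4718 to 5513, and none at 0. All 12 skeletal muscle markers matched were lower, with a sum of 214 to 263 against 22240 to 39937 and with Myog and Myod1 listed at 0 in every RCS library. The part of proliferation in the results below was not tested.

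Both HSP90 genes, HSP60, HSP10 and 7 of 8 tested TRiC entries were higher in RCS cells, and 6 of 8 small heat shock entries were lower. Of the 87 entries, 46 rose above rib tissue in RCS cells, 24 fell below it, 12 passed neither way and 5 were too low to test. The 70 called entries were 85.4% of the 82 tested, where 76.5% of all genes tested were called. Those higher were 56.1% of the 82 tested entries, against 32.9% of all genes tested, and those lower were 29.3%, against 43.6%. The 87 entries together took 0.762% to 0.807% of the normalized counts in RCS libraries and 0.407% to 0.437% in rib libraries. The filter shaped the counts of calls, since 8 entries reached a normalized count of 1 in all 3 rib libraries and in fewer than 3 RCS libraries. For these, the filter built in or may have favoured a difference towards rib tissue. None passed with all 3 RCS libraries and fewer than 3 rib libraries, and 1 entry passed with fewer than 3 libraries in each group. The shares over all genes were shaped as well, since 1947 tested genes were listed at 0 in every RCS library and 134 in every rib library. With a filter of 5 CPM, the median difference was 0.49 over the entries and 0.03 over all genes tested. Groups did not overlap at 72 of the 82 tested entries, a larger share than the 78.9% of all genes tested. Of the 82, 47 were so separated and higher, a larger share than the 34.4% of all genes. Another 25 were so separated and lower, a smaller share than the 44.5%. The median difference was 0.47 over the tested entries and -0.15 over all genes tested. With quantile normalization these medians were 0.79 and 0.32, with median scaling 0.74 and 0.13, and with cyclic loess 0.54 and 0.03, so the entries stood above the median gene under each. The share of called genes that was higher in RCS cells moved from 43.0% over all genes to 61.9%, 53.3% and 50.1% under these scalings.

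Both cytosolic HSP90 genes were higher in RCS cells. Hsp90aa1, the stress-inducible form, stood at 9.73, 9.68 and 9.16 in RCS cells replicates 1 to 3 and at 8.23, 7.89 and 7.88 in rib tissue replicates 1 to 3. Hsp90ab1, the constitutive form, stood at 11.70, 11.73 and 11.16 against 10.73, 10.19 and 10.11. In each case the lowest RCS library, replicate 3, lay above the highest rib library, replicate 1. The difference was 1.53 (SE 0.17, 2.88-fold, limma adjusted p 5.24e-05) for Hsp90aa1 and 1.19 (SE 0.20, 2.28-fold, adjusted p 0.000744) for Hsp90ab1. RefSeq names 16 pseudogenes of Hsp90aa1 and 23 of Hsp90ab1, and how reads with several matches were counted is not given in the sources used here, so both levels are uncertain to that extent.

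The mitochondrial chamber genes were higher too. Hspd1, which encodes HSP60, stood at 10.27, 10.23 and 9.78 in the RCS libraries and at 8.86, 8.35 and 8.23 in the rib libraries. Hspe1, its lid HSP10, stood at 8.60, 8.71 and 8.57 against 7.25, 7.20 and 7.24, with narrow groups far apart. The differences of this divergent pair, whose shared element is printed above, were 1.61 (SE 0.19, 3.06-fold, limma adjusted p 8.15e-05) and 1.40 (SE 0.08, 2.63-fold, adjusted p 1.7e-06). RefSeq names 20 pseudogenes of Hspd1 and 1 of Hspe1.

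Of 8 tested TRiC entries, 7 were higher in RCS cells (87.5%, against 32.9% of all genes tested), by 0.60 to 1.38, and Cct6b was lower. Cct7 stood at 10.50, 10.41 and 10.002 in the RCS libraries and at 9.14, 8.76 and 8.87 in the rib libraries. Cct2 was at 10.58, 10.53 and 10.35 against 9.22, 9.20 and 9.26, and Cct8 at 10.30, 10.26 and 10.24 against 9.17, 9.27 and 9.24. These 3 subunits differed by 1.38 (SE 0.15), 1.26 (SE 0.08) and 1.04 (SE 0.07), more than 2-fold each. The other 4 lay closer together. Cct4 was at 10.24, 10.22 and 10.20 against 9.43, 9.45 and 9.46 (0.77, SE 0.07). Cct3 was at 10.20, 10.20 and 10.15 against 9.49, 9.45 and 9.33 (0.76, SE 0.07). Cct6a was at 9.51, 9.51 and 9.14 against 8.84, 8.55 and 8.61 (0.72, SE 0.13), with 14 named pseudogenes, and Cct5 at 10.42, 10.35 and 10.31 against 9.80, 9.74 and 9.73 (0.60, SE 0.07). No library of one group reached the range of the other, and limma adjusted p ran from 2.72e-06 (Cct2) to 0.000906 (Cct6a). Tcp1, which encodes the first subunit and carries no Cct symbol, was at 9.72, 9.64 and 9.49 against 9.04, 9.03 and 8.97 (0.61, SE 0.08, adjusted p 0.000196). RCS cells replicate 3 was the lowest RCS library for all 7 Cct genes that were higher.

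The testis form of the sixth subunit went the other way. Cct6b stood at 3.75, 3.42 and 3.70 in the RCS libraries and at 4.53, 4.46 and 5.18 in the rib libraries, a difference of -1.10 (SE 0.28, limma adjusted p 0.00662). These levels are low, and the direction turned under quantile normalization (0.95) and cyclic loess (0.33). The 2 entries named Cct8l1 were listed at 0 in every RCS library, and only 1 of them was listed above 0, in rib tissue replicate 1 (2.70).

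**Figure D1:**
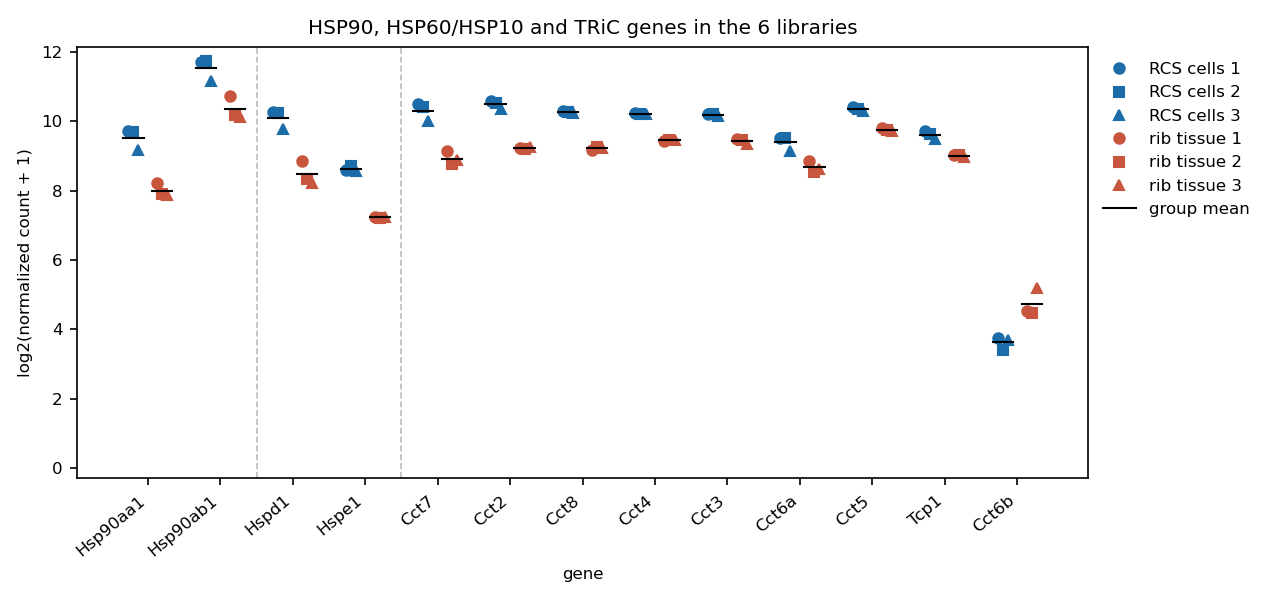
Level in each library, on the log2(normalized count + 1) scale, of the HSP90, HSP60, HSP10 and TRiC genes and of Tcp1, with black bars for group means. The RCS libraries lie above the rib libraries for every gene shown except Cct6b, and replicate 3 is the lowest RCS library at Hsp90aa1, Hsp90ab1, Hspd1 and Cct7.

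The HSP110 genes, nucleotide exchange partners of HSP70, were higher in RCS cells. Hsph1 stood at 10.20, 10.27 and 9.82 in the RCS libraries and at 8.55, 8.59 and 8.61 in the rib libraries, a difference of 1.51 (SE 0.12, 2.85-fold, limma adjusted p 7.67e-06). Hspa4l was at 7.53, 7.60 and 7.86 against 5.45, 5.13 and 3.75. It had the largest difference of any entry higher in RCS cells, 2.88 (SE 0.40, 7.38-fold, adjusted p 0.000212), and its rib libraries were spread, with replicate 3 lowest. Hspa4, the closest relative of Hspa4l, was at 10.47, 10.46 and 10.37 against 9.95, 9.92 and 9.96, a difference of 0.49 (SE 0.07, 1.40-fold, adjusted p 0.000278).

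Of 12 HSP70 entries without the 3 HSP110 genes, 4 were higher, 6 lower and 2 neither. Among these 12, the share higher lay near the 32.9% of all genes tested, and the share lower lay somewhat above the 43.6%. With the HSP110 genes, all 3 of them higher, 46.7% were higher and 40% lower. Hspa9, the HSP70 of mitochondria, stood at 9.88, 9.82 and 9.50 in the RCS libraries and at 9.34, 8.90 and 8.98 in the rib libraries (0.66, SE 0.14, limma adjusted p 0.003). Hspa13, an HSP70 of the secretory pathway, was at 9.50, 9.49 and 9.54 against 8.69, 8.98 and 9.07 (0.60, SE 0.10). For both genes the groups lay apart by less than 1 log2 unit at their means. The ribosome-bound HSP70 gene Hspa14 had 2 entries that went in opposite directions. ENSRNOG00000015212 was at 7.66, 7.69 and 7.80 against 7.35, 7.42 and 7.23 (0.38, SE 0.10), a call lost under cyclic loess (0.15), and ENSRNOG00000015196 at 3.71, 3.93 and 3.81 against 5.72, 5.58 and 5.86 (-1.90, SE 0.20), a call lost under quantile normalization (-0.25). How reads were divided between them is not given in the sources used here.

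Hspa8, the constitutive HSP70 of the cytosol, also had 2 entries, neither with an Entrez identifier, and RefSeq names 33 pseudogenes of it. ENSRNOG00000032585 stood at 5.67, 5.86 and 5.28 in the RCS libraries and at 5.05, 4.67 and 4.29 in the rib libraries (0.93, SE 0.26, limma adjusted p 0.0115), a call lost without RCS cells replicate 2 (0.80). ENSRNOG00000009920 was listed above 0 in 2 RCS libraries and 1 rib library, at most at 1.49 (0.60, SE 0.49, adjusted p 0.292), and was called higher under quantile normalization (2.14) and cyclic loess (3.25). Whether either entry measures the gene itself could not be told from the table, and the entries are reported as uncertain.

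The entries of the stress-inducible HSP70 gene and its neighbour did not pass the test as higher in RCS cells. Of 2 entries named Hspa1b, ENSRNOG00000045654 stood at 1.54, 1.52 and 0 in the RCS libraries and at 6.51, 5.99 and 5.26 in the rib libraries, with the groups far apart (-4.90, SE 0.50). It reached a normalized count of 1 in all rib libraries but not in all RCS libraries. The filter may thus have favoured its difference, and its p-value is not given. ENSRNOG00000050647 was at 5.63, 5.91 and 6.59 against 5.60, 5.35 and 5.73, with overlapping groups and a difference of 0.49 (95% interval -0.11 to 1.09, adjusted p 0.12). Without RCS cells replicate 1 it was called higher (0.69), as it was by cyclic loess (0.65), median scaling (0.77) and quantile normalization (1.67). Hspa1l, their neighbour best known from the testis, was at 1.90, 2.92 and 2.72 against 6.04, 5.77 and 5.13 (-3.14, SE 0.36). Copies of the inducible HSP70 gene are near-identical in sequence, so the division of reads among these entries is uncertain.

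The other HSP70 relatives were lower in RCS cells. Hspa12b, a divergent member known from endothelial cells, stood at 5.998, 5.96 and 6.19 in the RCS libraries and at 8.66, 8.61 and 8.22 in the rib libraries (-2.45, SE 0.14, 5.45-fold). Of 6 endothelial markers, 5 were lower in RCS cells, with Cdh5, Kdr and Tie1 listed at 0 in every RCS library. Vwf was called neither way, at 8.82, 8.74 and 8.60 against 9.23, 9.002 and 8.52. The summed normalized count of the 6 was 409 to 457 against 2497 to 3892. On the log2 scale the RCS sums were 8.84, 8.78 and 8.68, so they were nearly all Vwf. The part of endothelial cells in the Hspa12b difference was not tested. Hspa12a was at 6.33, 6.25 and 6.40 against 7.80, 8.03 and 8.12 (-1.66, SE 0.12, 3.16-fold). Hspa2, known from germ cells, was at 5.73, 5.97 and 5.89 against 6.82, 6.59 and 7.21 (-1.01, SE 0.18, 2.01-fold), and that call was lost under quantile normalization (-0.39).

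Among 6 HSF entries, 3 passed as higher (50%, against 32.9% of all genes tested), 2 as lower (33.3%, against 43.6%) and 1 as neither. Hsf1, the main activator of the heat shock response, stood at 9.09, 9.02 and 8.95 in the RCS libraries and at 8.45, 7.997 and 8.14 in the rib libraries, a difference of 0.82 (SE 0.12, 1.77-fold, limma adjusted p 0.000307). Hsf2 was at 8.31, 8.37 and 8.35 against 8.15, 8.15 and 8.11, a gap of 0.20 (SE 0.07, adjusted p 0.0362). That call was lost under cyclic loess (0.01), with the replicate number as a block (adjusted p 0.0859) and without any 1 of RCS cells replicates 1, 2 and 3 and rib tissue replicates 2 and 3. Hsf4, the factor best known from the lens, was low in both groups, at 4.50, 4.58 and 5.24 against 3.45, 2.85 and 2.0 (2.01, SE 0.41, adjusted p 0.00213).

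Hsf3 and Hsf5 were near the limit of detection. Hsf3 was listed above 0 in only 1 RCS library (1.35) and stood at 2.08, 2.49 and 1.78 in the rib libraries. Hsf5, known from the testis, was at 1.19, 0 and 1.43 against 2.26, 2.11 and 2.71. Both reached a normalized count of 1 in all rib libraries but not in all RCS libraries. The filter may thus have favoured their calls as lower, which are not taken as independent evidence. Both turned positive under quantile normalization (0.58 and 0.94) and cyclic loess (0.78 and 0.84). Array weights and the omission of rib tissue replicate 2 also ended the Hsf3 call, and a pseudocount of 0.1 and the omission of RCS cells replicate 2 or rib tissue replicate 3 ended the Hsf5 call. Hsf2bp was at 4.28, 4.57 and 4.89 against 4.23, 4.95 and 5.02, with overlapping groups (-0.15, 95% interval -0.83 to 0.52), and its difference turned positive with cyclic loess (0.94), median scaling (0.13) and quantile normalization (1.68).

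**Figure D2:**
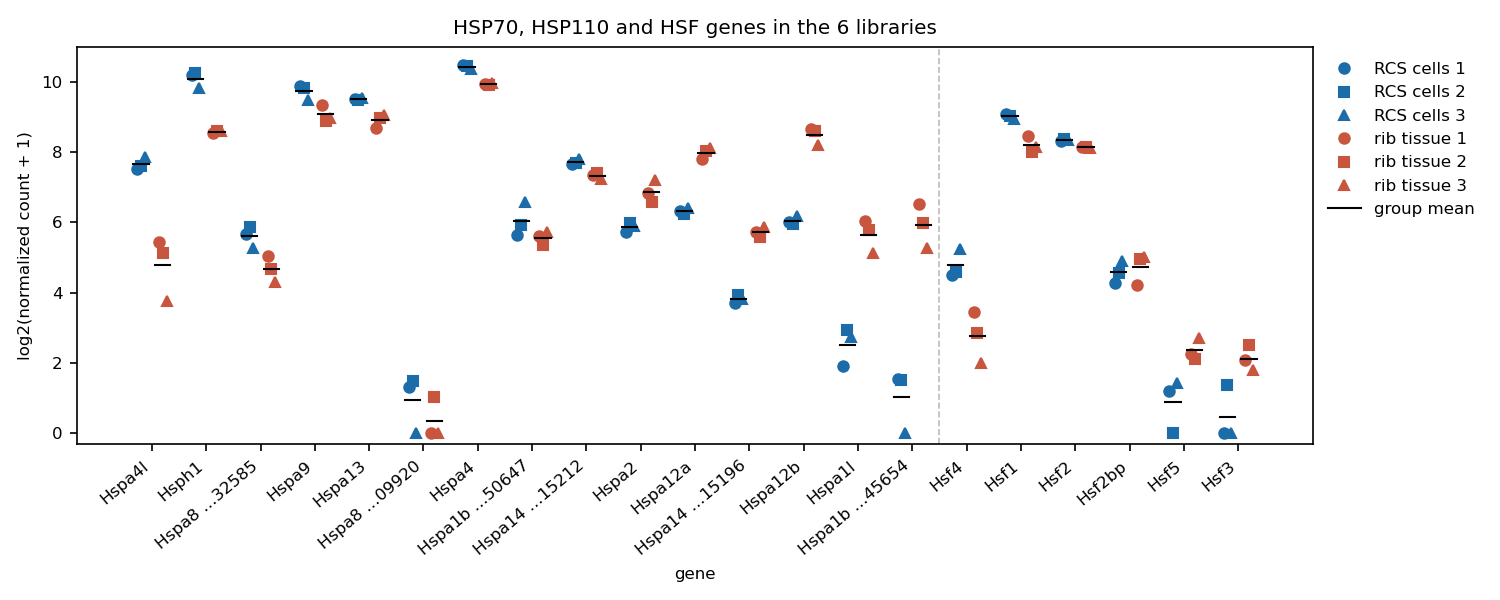
Level in each library, on the log2(normalized count + 1) scale, of the HSP70, HSP110 and HSF genes, with black bars for group means and the last 5 digits of the Ensembl identifier where a symbol has 2 entries. Hspa4l, Hsph1 and Hsf1 lie higher in RCS cells, and Hspa12b, Hspa1l and the Hspa1b entry ENSRNOG00000045654 higher in rib tissue.

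Small heat shock genes gave the largest differences among the chaperone entries, all towards rib tissue. Hspb8, which works with BAG3 in clearing damaged muscle proteins, was listed at 0 in RCS cells replicates 1 and 2 and stood at 1.27 in replicate 3, against 8.87, 9.08 and 8.38 in the rib libraries. Hspb7, a heart and muscle form, was at 1.70, 1.55 and 2.74 against 9.31, 8.97 and 8.32. Hspb2, a muscle form, was at 1.13, 0 and 1.27 against 7.34, 7.22 and 6.58, and Hspb3, another muscle form, had no RCS library above 0 and stood at 6.05, 6.45 and 5.46 in rib tissue. In these 4 genes no RCS library came above 2.74 and no rib library below 5.46. A gene listed at 0 in a library can have had up to 0.975 to 1.93 reads there. The differences were -8.35 (SE 0.39) for Hspb8, -6.87 (SE 0.37) for Hspb7, -6.24 (SE 0.40) for Hspb2 and -5.99 (SE 0.32) for Hspb3. Hspb3, at 0 in every RCS library, passed the filter only through rib tissue and had to differ. Hspb8 and Hspb2 reached a normalized count of 1 in all rib libraries but not in all RCS libraries. The filter may thus have favoured their differences. For Hspb8, Hspb2 and Hspb3 the p-values are not given. Hspb7 was above 0 in all 6 libraries (limma adjusted p 9.65e-07).

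In contrast to those 4 genes, Hspb1, Hspb6 and Cryab were well above 0 in every RCS library. Hspb1, which encodes HSP27, stood at 6.84, 6.76 and 7.06 in the RCS libraries and at 9.25, 8.69 and 8.23 in the rib libraries (-1.84, SE 0.23, 3.57-fold, limma adjusted p 0.000131). Hspb6, which encodes HSP20, was at 7.78, 7.74 and 7.76 against 8.96, 8.81 and 8.02 (-0.83, SE 0.22, 1.78-fold, adjusted p 0.0082). Its tight RCS values lay just under rib tissue replicate 3. Cryab, the small heat shock gene that carries a crystallin symbol, was at 5.38, 5.47 and 5.89 against 9.54, 9.21 and 8.76 (-3.59, SE 0.21, 12.05-fold).

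The 6 small heat shock genes that were lower (75% of those tested, against 43.6% of all genes tested) all had rib tissue replicate 3 as their lowest rib library. The skeletal muscle markers averaged 10.99, 10.81 and 10.03 in rib tissue replicates 1 to 3 and 2.41 to 2.56 in the RCS libraries. Replicate 3 was thus lowest there as well. It was also the lowest rib library for the averages of the fibroblast, endothelial, macrophage, erythroid and proliferation markers. For the chondrocyte markers it was the highest rib library (12.84, 12.48 and 13.04). The part of muscle or of other cell types in the small heat shock differences was not tested. In bulk samples, fewer cells of a type and less RNA per cell cannot be told apart. Without any 1 of the rib libraries, Hspb3 no longer passed the filter, since it was then above 0 in only 2 libraries. The other 5 were again called lower, which adds no support for Hspb8 and Hspb2, since the filter may have favoured their differences.

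The remaining 2 small heat shock entries did not pass the test. Hspb11 stood at 6.14, 6.16 and 6.79 in the RCS libraries and at 5.56, 6.16 and 5.78 in the rib libraries, a difference of 0.53 (95% interval -0.02 to 1.07). Without rib tissue replicate 2 it was called higher (0.69), as it was by cyclic loess (0.57), median scaling (0.82) and quantile normalization (1.50). Hspb9, known from the testis, was at 2.59, 2.65 and 2.40 against 3.66, 2.62 and 3.37 (-0.67, 95% interval -1.45 to 0.11). It was called lower without rib tissue replicate 2 (-0.97) and called higher under quantile normalization (1.89) and cyclic loess (1.19).

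**Figure D3:**
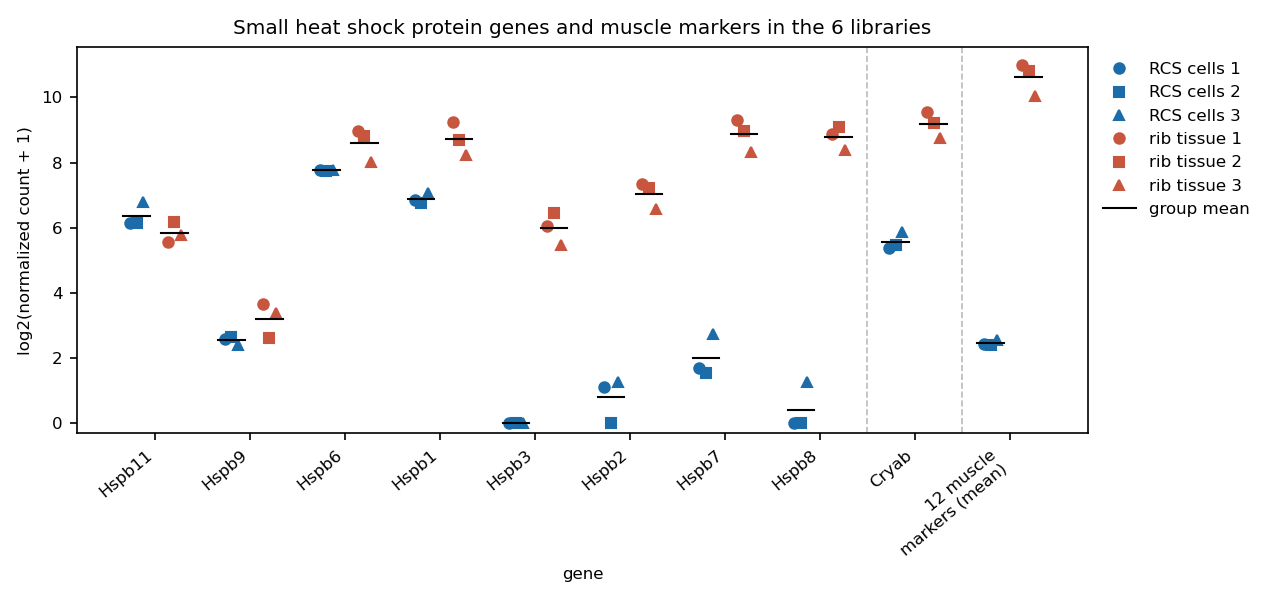
Level in each library, on the log2(normalized count + 1) scale, of the 8 small heat shock entries, Cryab and the mean of 12 skeletal muscle markers, with black bars for group means. Hspb2, Hspb3, Hspb7 and Hspb8 lie at or below 2.74 in RCS cells and between 5.46 and 9.31 in rib tissue, where replicate 3 is lowest.

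DNAJA proteins are the closest relatives of the bacterial DnaJ protein. Of the 4 genes, 3 were higher in RCS cells (75%, against 32.9% of all genes tested). Dnaja2 stood at 9.72, 9.85 and 9.62 in the RCS libraries and at 8.65, 8.74 and 8.65 in the rib libraries (1.04, SE 0.08, 2.06-fold, limma adjusted p 8.43e-06). Dnaja1 was at 9.45, 9.43 and 9.35 against 8.40, 8.44 and 8.48 (0.97, SE 0.07, 1.96-fold). Dnaja3, the mitochondrial form, was at 9.36, 9.23 and 9.29 against 8.75, 8.55 and 8.40 (0.73, SE 0.10). The groups of these 3 genes lay wholly apart. Dnaja4 went the other way, at 7.78, 7.65 and 7.49 against 8.53, 8.27 and 7.81 (-0.56, SE 0.18, adjusted p 0.0192), a call lost under median scaling (-0.27) and without RCS cells replicate 3 (-0.49) or rib tissue replicate 2 (-0.53).

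Of 12 tested DNAJB genes, 5 were higher (41.7%, against 32.9% of all genes tested), 5 lower (41.7%, against 43.6%) and 2 neither, so the share lower lay near that of all genes. Dnajb11, the main DNAJ protein of the endoplasmic reticulum, stood at 10.15, 10.12 and 10.01 in the RCS libraries and at 8.64, 8.72 and 8.70 in the rib libraries (1.41, SE 0.07, 2.66-fold, limma adjusted p 8.26e-07). Dnajb6, which holds back aggregation, was at 9.21, 9.26 and 8.97 against 8.16, 7.87 and 7.96 (1.15, SE 0.11, 2.22-fold), with 10 named pseudogenes. Dnajb9, another DNAJ of the endoplasmic reticulum, was at 8.07, 8.01 and 8.13 against 7.31, 7.69 and 7.52 (0.57, SE 0.11). Dnajb1, the stress-inducible HSP40 gene, was at 8.40, 8.45 and 8.49 against 8.21, 8.05 and 7.98. Its difference of 0.36 (SE 0.09, 1.29-fold, adjusted p 0.00531) was among the smaller ones, and the call was lost under cyclic loess (0.17). Dnajb2, known from neurons, differed by 0.38 (SE 0.13), a call lost under cyclic loess (0.17) and without RCS cells replicate 1 or 2 or rib tissue replicate 2 or 3.

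The 5 DNAJB genes lower in RCS cells included 2, Dnajb3 and Dnajb13, that passed the filter only through rib tissue and had to differ. Dnajb4 stood at 5.85, 6.12 and 5.95 in the RCS libraries and at 7.96, 7.94 and 7.73 in the rib libraries (-1.91, SE 0.13, 3.75-fold, limma adjusted p 3.04e-06). Dnajb3, known from the testis, had no RCS library above 0 and stood at 3.67, 3.70 and 4.42 in rib tissue, and Dnajb13, known from sperm tails, was listed at 0 in all RCS libraries against 2.47, 2.64 and 1.44 in rib tissue. Dnajb7 was at 2.97, 2.71 and 2.84 against 4.11, 4.42 and 4.58 (-1.53, SE 0.26). At these low levels the scaling mattered, since Dnajb13 turned positive under quantile normalization (0.05) and cyclic loess (0.33), as did Dnajb7 (0.80 and 0.10). The membrane-bound Dnajb12 was at 8.55, 8.64 and 8.75 against 8.87, 8.95 and 9.17 (-0.35, SE 0.10), a call lost under median scaling (-0.06) and without RCS cells replicate 1 (-0.30).

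Dnajb5 and Dnajb14 did not pass the test. Dnajb5 differed by -0.33 (95% interval -0.76 to 0.11) and was called lower without rib tissue replicate 3 (-0.55), under cyclic loess (-0.56) and with array weights (-0.38). Dnajb14 differed by -0.26 (95% interval -0.62 to 0.10), was called lower without rib tissue replicate 1 (-0.41) and under cyclic loess (-0.49), and turned to 0.03 under median scaling. Dnajb8 was listed at 0 in all 6 libraries.

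DNAJC proteins share only the J domain and have varied tasks, and of 25 tested entries 17 were higher in RCS cells (68%, against 32.9% of all genes tested), 3 lower (12%, against 43.6%) and 5 neither. Among those higher, the largest differences were in Dnajc2 and Dnajc21. Dnajc2, a J protein bound to the ribosome, stood at 8.99, 8.98 and 8.90 in the RCS libraries and at 7.51, 7.52 and 7.48 in the rib libraries (1.45, SE 0.08, 2.74-fold, limma adjusted p 8.24e-07). Dnajc21, which takes part in making the large ribosomal subunit, was at 7.76, 7.87 and 7.65 against 6.57, 6.37 and 6.43 (1.30, SE 0.11, 2.46-fold). Dnajc24, needed for the diphthamide mark of an elongation factor, was at 6.46, 6.61 and 6.83 against 5.40, 5.76 and 5.79 (0.98, SE 0.17). In all 3 genes the groups lay apart by more than the range within either.

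The DNAJC genes lower in RCS cells were Dnajc1, Dnajc13 and Dnajc3, and others with tasks in the endoplasmic reticulum or vesicles were higher. Dnajc10, a reductase of the endoplasmic reticulum, stood at 10.45, 10.50 and 10.46 in the RCS libraries and at 9.55, 9.77 and 9.77 in the rib libraries (0.77, SE 0.08, limma adjusted p 5.49e-05). Dnajc5, the cysteine string protein of secretory vesicles, was at 10.34, 10.38 and 10.36 against 9.65, 9.63 and 9.70 (0.70, SE 0.07, adjusted p 2.55e-05). Dnajc1, a J protein of the endoplasmic reticulum membrane, was lower, at 6.66, 6.84 and 6.80 against 8.47, 8.42 and 8.77 (-1.79, SE 0.12, 3.45-fold, adjusted p 3.01e-06). Dnajc13, an endosome protein, was at 9.59, 9.56 and 9.37 against 9.92, 10.07 and 10.13 (-0.53, SE 0.09), a call lost under median scaling (-0.24). Dnajc3, an HSP70 partner in the endoplasmic reticulum, was at 8.49, 8.32 and 8.47 against 8.67, 8.69 and 8.96 (-0.35, SE 0.10), a call lost under median scaling (-0.05) and without RCS cells replicate 2 (-0.29). Dnajc6, the clathrin uncoating factor auxilin, was low, at 4.25, 4.35 and 4.69 against 2.97, 3.94 and 2.82 (1.19, SE 0.35), and the call was lost without RCS cells replicate 3 (1.06).

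The other DNAJC genes that were higher differed by 0.36 to 1.26. Among them, DNAJC9, a histone chaperone, stood at 8.81, 8.80 and 8.81 in the RCS libraries and at 8.11, 7.98 and 7.98 in the rib libraries (0.78, SE 0.08, limma adjusted p 2.94e-05). Dnajc28 was at 6.34, 6.63 and 6.92 against 5.59, 5.83 and 4.70 (1.26, SE 0.30), and Dnajc27 at 9.12, 9.14 and 9.09 against 8.05, 8.26 and 8.16 (0.96, SE 0.08). The mitochondrial J proteins Dnajc30, Dnajc11 and Dnajc15 differed by 0.75 (SE 0.13), 0.47 (SE 0.10) and 0.40 (SE 0.13). Dnajc14 differed by 0.54 (SE 0.07), Dnajc7, which links HSP70 and HSP90, by 0.50 (SE 0.08), Dnajc18 by 0.48 (SE 0.14), Dnajc25 by 0.43 (SE 0.14) and Dnajc8, a splicing-associated protein, by 0.36 (SE 0.09). Cyclic loess ended the calls of Dnajc8 (0.18), Dnajc15 (0.17), Dnajc18 (0.25) and Dnajc25 (0.20). The Dnajc25 call was also lost without any 1 of RCS cells replicates 1, 2 and 3 and rib tissue replicates 1 and 2, and the calls of Dnajc15 and Dnajc18 without RCS cells replicate 3. The Dnajc15 call was lost with array weights as well (0.29).

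The 5 DNAJC genes that did not pass the test were Dnajc17 (0.27, 95% interval -0.11 to 0.65), Dnajc12 (0.26, -0.35 to 0.86), Dnajc16 (0.20, -0.04 to 0.43), Dnajc22 (-0.11, -0.56 to 0.34) and Dnajc4 (-0.45, -0.89 to -0.01). Dnajc17 was called higher under quantile normalization (1.11) and median scaling (0.56), Dnajc12 under quantile normalization (2.01) and cyclic loess (1.18), and Dnajc16 under quantile normalization (0.32) and median scaling (0.49), while cyclic loess gave -0.04 for Dnajc16. Dnajc4 was called lower without rib tissue replicate 3 (-0.60) and with array weights (-0.44), and turned to 0.63 under quantile normalization. Dnajc22 turned positive under quantile normalization (0.13), median scaling (0.18) and without rib tissue replicate 3 (0.11). Dnajc5g was listed at 0 in all 6 libraries and Dnajc5b was listed above 0 only in rib tissue replicate 2 (1.02).

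**Figure D4:**
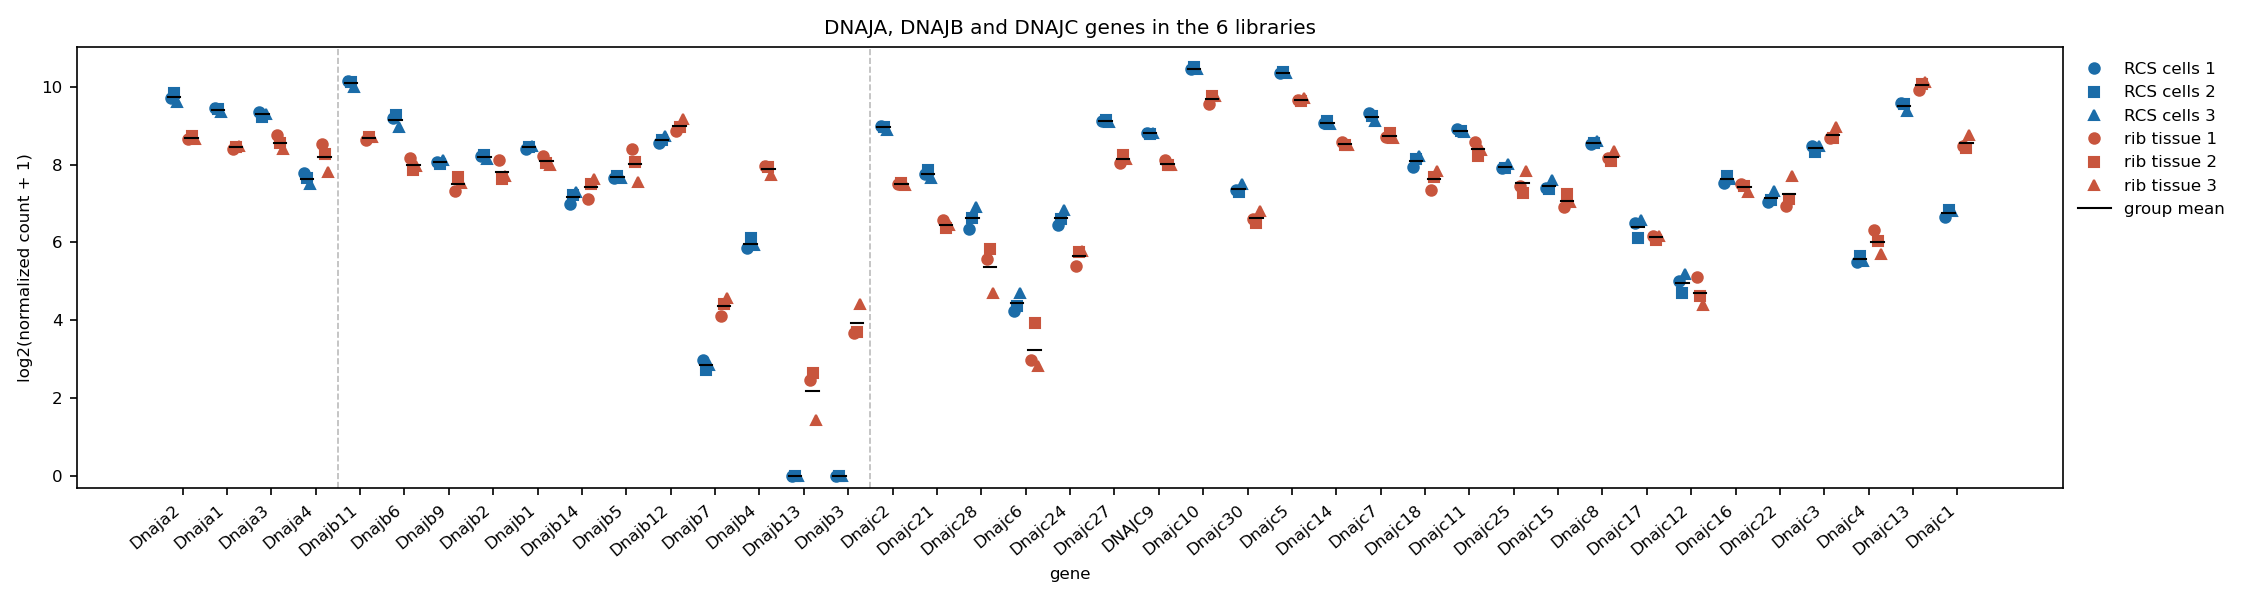
Level in each library, on the log2(normalized count + 1) scale, of the 41 tested DNAJA, DNAJB and DNAJC genes, with black bars for group means. Dnajb11, Dnajc2 and Dnajc21 lie more than 1 unit higher in RCS cells, and Dnajb3, Dnajb4 and Dnajc1 more than 1 unit higher in rib tissue.

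Partners of these chaperones outside the families were also higher in RCS cells more often than lower. Of 48 tested genes in a list of co-chaperones and organelle chaperones, 31 had higher levels in RCS cells and 3 lower levels, with 14 called neither way. The share higher was larger than the 32.9% of all genes tested, and the share lower smaller than the 43.6%. The largest differences among those higher were in Fkbp4, an HSP90 partner in steroid receptor folding, at 10.40, 10.34 and 10.21 in the RCS libraries and at 8.89, 8.67 and 8.35 in the rib libraries (1.68, SE 0.14, limma adjusted p 9.02e-06), and in Clpp, the mitochondrial protease, at 8.16, 8.35 and 8.13 against 6.72, 6.54 and 6.66 (1.57, SE 0.11). The HSP90 co-chaperone genes Ptges3, Stip1 and Ahsa1 differed by 1.46 (SE 0.12), 1.12 (SE 0.08) and 0.88 (SE 0.09). The 3 genes lower in RCS cells were Unc45b, the myosin chaperone of muscle, Cryab and Bag6. Unc45b was at 1.06, 0 and 1.27 in the RCS libraries and at 8.71, 8.77 and 7.18 in the rib libraries. Rib tissue replicate 3 was again lowest. Unc45b reached a normalized count of 1 in all rib libraries but not in all RCS libraries, so the filter may have favoured its difference. Bag6 differed by -0.32 (SE 0.10), a call lost under quantile normalization, median scaling and without RCS cells replicate 2 or 3.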

How the data were processed

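RNA-seq was compared between 3 RCS libraries and 3 rib libraries, grouped by their labels. The authors deposited log2 values of normalized counts per gene, in which each library has 1 scaling factor, gene length is not taken into account and a normalized count of 1 or less is listed as 0. The submitters' processing notes name CASAVA 1.8, DESeq and rn5 with no role. Which aligner and counting method were used, whether strand was read and how reads that match more than once were handled is not given in the sources used here. Depth was estimated from the step that 1 read makes among low values.

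The deposited log2 values were turned back into normalized counts, a pseudocount of 1 was added, and genes that reached a normalized count of 1 in 3 or more of the 6 libraries were tested on the log2 scale with limma 3.58.1 with an intensity trend in R 4.3.3, two-sided, with Benjamini-Hochberg adjustment over all tested genes. No library was dropped or imputed. Folds are 2 raised to the difference, understate the change of low genes, and are not given if either group averaged under 10 normalized counts. The procedure was tested on simulated data. The alternatives were quantile normalization, median scaling, cyclic loess, a pseudocount of 0.1, no filter, a filter of 5 CPM, array weights, the replicate number as a block and leaving out each library in turn.

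The members and gene lists were chosen with earlier results of these data known. The rule for named genes took all tested HSP90, HSP60, HSP10, TRiC and HSF entries, and in each other family the 2 with the highest mean and the 2 largest called differences each way. All other entries described, and Bag6, Stip1, Ptges3 and Ahsa1, were chosen after their values were seen. Of the other marker lists, 8 of 8 fibroblast, 6 of 6 macrophage and 3 of 4 erythroid genes were lower in RCS cells. Promoters and pseudogene names came from RefSeq (GRCr8), matched by identifier or symbol, and no coordinates were converted.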

Additional observations from a re-analysis of the deposited data

How the results depend on the processing

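Of 52 genes (43 chaperone entries named by rule and 9 partners outside the families), 42 kept direction and side of the threshold. This held under every alternative that could test them (14 in all). The rule partly picked high means and large differences, which favours such stability. Of all 82 tested entries and the 9 partners, quantile normalization left 73 the same, turned 9, added 6 calls and ended 3. Cyclic loess left 69 the same, turned 8, added 6 calls and ended 8. The chaperone entries called higher numbered 41 to 57 and those called lower 17 to 25, within 1.5 times the reported 46 and 24. Directions turned under quantile normalization for Hspb9 (1.89), Dnajb7 (0.80), Dnajb13 (0.052), Dnajc22 (0.13), Dnajc4 (0.63), Cct6b (0.95), Hsf2bp (1.68), Hsf5 (0.94) and Hsf3 (0.58). They turned under median scaling for Dnajb14 (0.032), Dnajc22 (0.18) and Hsf2bp (0.13), and under cyclic loess for Hspb9 (1.19), Dnajb7 (0.098), Dnajb13 (0.33), Dnajc16 (-0.038), Cct6b (0.33), Hsf2bp (0.94), Hsf5 (0.84) and Hsf3 (0.78). With 1 library left out at a time, Dnajc22 ranged from -0.27 without rib tissue replicate 1 to 0.11 without rib tissue replicate 3. The cause was not tested. Same-numbered libraries did not deviate together (correlations of 0.064, -0.076 and 0.047), so the numbers were not taken to pair the samples. With the replicate number as a block, 45 entries were higher and 24 lower, and the Hsf2 call was lost (0.20, adjusted p 0.0859). Depth limits the entries near 0, among them Hsf3, Hsf5, Dnajb13 and Hspa8 (ENSRNOG00000009920).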
